A study of Mus musculus with 12 samples.

Results

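Intronless protein-coding genes were examined in RNA immunoprecipitation followed by sequencing (RIP-seq) of the m6A readers YTHDF1, YTHDF2 and YTHDF3 in mouse hippocampal neurons. A gene was taken when it was listed as protein-coding and its annotated exons merged into 1 uninterrupted interval. Genes on chromosomes X and Y, and genes whose symbol begins with Hist, Pcdh, Kcn, Jun, Gm, Olfr, Rpl or Rps, were left out. The count table held 55573 genes, of which 13438 were listed as protein-coding and 447 had 1 merged interval. Of the 447, 143 were dropped by symbol and 24 by chromosome, which left 280 genes, called members here. The mean normalized count of all 280 reached 10, the limit for testing (lowest 10.6, median 155, highest 9620), as did that of every listed protein-coding gene. The rule used no fold change or p-value. It took biotypes from the authors' table, which lists 16716 genes, and the mean count covers Input and RIP libraries together. A gene low in Input could therefore be listed through a RIP where it was high, as may hold for Adam4 below.

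The label was checked against the transcripts of GENCODE M21, the annotation of genome build GRCm38 at hand. Of the 280 members, 213 had no spliced transcript and 66 had at least 1, because a retained intron or an overlapping isoform fills the gap between the exons. The remaining gene, Gpr52, an orphan G protein-coupled receptor gene, had no transcript there. The 213 genes are called unspliced members, and results are given for them beside all 280. Exonic length ran from 171 to 11294 bases with a median of 2735. The median level in Input was 3.52 normalized CPM (counts scaled to library size) per kb of exon, against 4.03 for the other protein-coding genes.

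The series holds 3 Input libraries and 3 RIP libraries for each of YTHDF1, YTHDF2 and YTHDF3. Primary neurons came from pooled hippocampi of newborn wild-type C57BL/6 pups of both sexes, received cytosine arabinoside (Ara-C) against dividing glia, and were lysed after 14 days in culture. No group carried a transgene or a knockout, and each RIP used an antibody against the endogenous protein, so the 4 groups differ in the antibody (none for Input). Lysate of each replicate was split between the 3 RIPs and its Input, and DNase treatment is stated for Input RNA only. None of these libraries is a RIP with a control antibody.

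Counts per library summed to 9092494 to 13833973 for Input, 10037804 to 38909592 for YTHDF1, 6020072 to 9259893 for YTHDF2 and 21395271 to 22400602 for YTHDF3. Neuronal markers (8 genes, none at 0) summed to 2620 to 4050 CPM in Input. Astrocyte markers (6 genes) summed to 259 to 2520 CPM and oligodendrocyte-lineage markers (7 genes) to 58.8 to 403 CPM, so the cultures held glial RNA in amounts that differed between replicates. Microglial and endothelial markers stayed between 2.86 and 9.13 CPM in Input. In such bulk samples, fewer cells of a type and less RNA per cell cannot be told apart. The p-values measure the spread between these libraries, of which those of 1 replicate share a lysate.

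N6-methyladenosine (m6A) is placed on mRNA in the nucleus by a complex around METTL3 and METTL14, most often at the adenosine of the sequence GGACT. Exon junction complexes, which are deposited near splice junctions, keep that complex away from internal exons, so m6A gathers in long last exons and near stop codons. An RNA that is never spliced carries no exon junction complex. The YTHDF proteins lie in the cytoplasm and recognise m6A with their YTH domain. A RIP measures how much of each RNA comes down with the protein, relative to its level in Input.

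The coding end, the last 120 coding bases up to and including the stop codon, lies in the only exon of an unspliced gene and in the part of mRNA where m6A is commonly found. The coding ends of 7 unspliced members are shown because the results below turn on these genes. The first 6 were among the most enriched in the YTHDF1 RIP, and Hmga1b was depleted in all RIPs. Each is written from 5′ to 3′ in the sense of the mRNA, from the GENCODE M21 transcripts on GRCm38, with GGACT in capitals; only the transcript strand was searched.
Sox4, chr13:28951699-28951818, minus strand: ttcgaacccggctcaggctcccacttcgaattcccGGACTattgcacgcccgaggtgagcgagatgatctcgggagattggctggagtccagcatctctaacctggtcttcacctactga
Sox11, chr12:27341221-27341340, minus strand: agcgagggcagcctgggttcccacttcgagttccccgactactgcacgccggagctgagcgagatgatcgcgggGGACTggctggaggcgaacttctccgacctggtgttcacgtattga
Slitrk1, chr14:108911187-108911306, minus strand: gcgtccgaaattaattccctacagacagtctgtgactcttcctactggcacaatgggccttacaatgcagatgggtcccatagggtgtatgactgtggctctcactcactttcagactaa
Klhl9, chr4:88720149-88720268, minus strand: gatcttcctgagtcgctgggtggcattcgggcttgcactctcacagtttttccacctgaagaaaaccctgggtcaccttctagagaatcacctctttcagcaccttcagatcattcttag
Pou3f3, chr1:42698520-42698639, plus strand: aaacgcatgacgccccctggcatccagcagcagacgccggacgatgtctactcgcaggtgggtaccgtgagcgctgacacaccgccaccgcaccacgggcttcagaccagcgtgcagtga
Fbxl14, chr6:119480943-119481062, plus strand: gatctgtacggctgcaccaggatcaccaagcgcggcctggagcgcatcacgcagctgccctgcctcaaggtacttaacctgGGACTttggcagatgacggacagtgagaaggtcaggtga
Hmga1b, chr11:120763093-120763212, plus strand: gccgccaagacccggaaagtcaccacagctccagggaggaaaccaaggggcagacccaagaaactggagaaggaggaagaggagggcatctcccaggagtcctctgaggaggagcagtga
GGACT began at base 36 of the Sox4 coding end, at base 75 of that of Sox11 and at base 82 of that of Fbxl14, counted from 1 at the 5′ end. The other 4 held none in this window.

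Intronless genes were enriched more often than other genes in the YTHDF1 RIP. By edgeR's quasi-likelihood test, with calls made past a log2 fold change of 0.32 in either direction at an adjusted p (Benjamini-Hochberg) up to 0.05, 129 of 280 members were enriched over Input (46.1%), 39 were depleted (13.9%) and 112 were called neither way. Of all 17126 genes tested, 27.2% were enriched and 25.8% depleted. The median log2 fold change was 0.78 for members, 0.12 for all protein-coding genes tested and 0.02 for all genes tested. All 3 RIP libraries lay above all 3 Input libraries for 124 members and below them for 44, while 27.9% and 28.0% of all tested genes did so. The count depended on scaling and pairing. With library size alone, which moved the median of all genes to -0.38, 87 members were enriched and 57 depleted, against 18% and 36.3% of all genes. With TMM factors from protein-coding genes alone, which moved it to -0.22, 100 were enriched and 50 depleted, against 21.5% and 32.2% of all genes. A replicate block in a fit of the YTHDF1 and Input libraries gave 68 enriched and 28 depleted members against 14.0% and 17.7% of all genes. Whether the replicate numbers of these libraries mark true pairs was not tested.

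In the YTHDF2 RIP, 65 members were enriched (23.2%) and 38 depleted (13.6%), against 15.7% and 19.0% of all genes tested. In the YTHDF3 RIP, 60 were enriched (21.4%) and 48 depleted (17.1%), against 16.4% and 23.0%. The median log2 fold changes of members were 0.37 and 0.27. In YTHDF2, RIP libraries lay above every Input library for 101 members and below for 51, while 25.3% and 27.5% of all tested genes did so. In YTHDF3 these were 95 and 64 members, against 26.6% and 29.1% of all tested genes. For YTHDF3, whose libraries deviated together with the same-numbered Input, the replicate block in a fit of both groups called 129 members enriched and 64 depleted, and all 60 and 48 earlier calls were kept. In that fit 36.3% of all genes were enriched and 32.2% depleted. Library size alone, which moved the median of all genes in YTHDF3 to 0.38, gave 86 enriched and 25 depleted members, against 28.2% and 17.7% of all genes. Without Input replicate 2 the enriched count in YTHDF3 was 33, a share of members close to the 11.5% of all genes. Without YTHDF3 RIP replicate 2 the depleted count was 30, against 17.4% of all genes. The 3 comparisons share the Input libraries and are set side by side only.

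Because longer RNAs were more enriched in every RIP, each member was compared with a fixed number of other protein-coding genes nearest to it in exonic length. Among those genes 15.6% were enriched and 37.8% depleted in YTHDF1, 9.96% and 26.6% in YTHDF2, and 8.44% and 34.6% in YTHDF3. The median log2 fold change of the genes of equal length was -0.44, -0.24 and -0.38. The member exceeded the median of its own genes of equal length by a median of 1.19 in YTHDF1 (interquartile range 0.47 to 1.89), 0.58 in YTHDF2 (0.06 to 1.22) and 0.67 in YTHDF3 (0.12 to 1.19), all on the log2 scale. It did so for 238, 217 and 222 of 280 members. With library size alone the difference was 1.23, 0.57 and 0.68. A change of scaling shifts a member and its comparison genes alike and so largely cancels, which makes this no separate check.

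Exonic length merges all isoforms of a gene, so genes of equal exonic length had shorter transcripts than unspliced members. The longest coding transcript had a median of 2610 bases for unspliced members and 2130 bases for their genes of equal exonic length, and 208 of 213 were above the median of their own comparison genes. The comparison was therefore repeated with genes nearest in length of that transcript, an alternative chosen after the data were seen. For the 278 members with such a transcript the difference was 0.89 in YTHDF1, 0.42 in YTHDF2 and 0.41 in YTHDF3, smaller than by exonic length, and positive for 229, 193 and 193 of them. The genes nearest in transcript length were enriched in 20.9%, 14.0% and 13.1% of cases and depleted in 30.8%, 21% and 26.3%. Per library the difference was 1.12, 0.564 and 0.951 in YTHDF1, 0.349 to 0.453 in YTHDF2 and 0.292 to 0.493 in YTHDF3, so the RIP libraries stayed above Input (-0.0362 to 0.0264). Differences from genes of equal length in the remaining text are by exonic length unless transcript length is named.

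**Figure D1:**
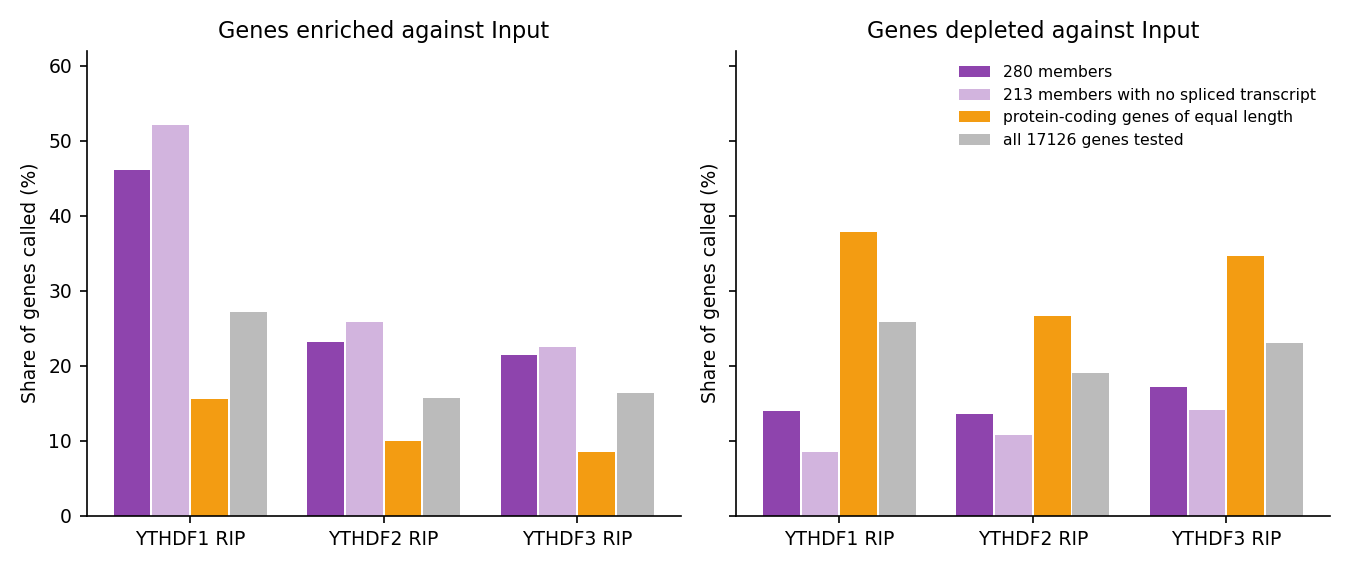
Bars give the percentage of genes called enriched or depleted over Input in each RIP, for the 280 members, for the 213 unspliced members, for the protein-coding genes of equal exonic length and for all tested genes; the axis starts at 0. In YTHDF1, 46.1% of members were enriched against 15.6% of genes of equal length and 27.2% of all genes.

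The difference from genes of equal length was also computed in each library, as the log2 ratio of its CPM to the mean of Input. It was -0.009, 0.027 and -0.001 in the Input libraries, 1.471, 0.793 and 1.348 in YTHDF1, 0.642, 0.509 and 0.6 in YTHDF2, and 0.58, 0.769 and 0.698 in YTHDF3. The means were 1.2 ± 0.361 (SD, n = 3) in YTHDF1, 0.584 ± 0.068 in YTHDF2 and 0.682 ± 0.0955 in YTHDF3. Every RIP library lay above every Input library, and every YTHDF1 library lay above every YTHDF2 and YTHDF3 library. Members took 1.1% ± 0.0416 of protein-coding counts in Input, 1.55% ± 0.254 in YTHDF1, 1.27% ± 0.0802 in YTHDF2 and 1.15% ± 0.129 in YTHDF3 (SD, n = 3 each). The share in YTHDF3 ranged from 1.01% to 1.26% and overlapped that of Input, which ranged from 1.05% to 1.13%.

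**Figure D2:**
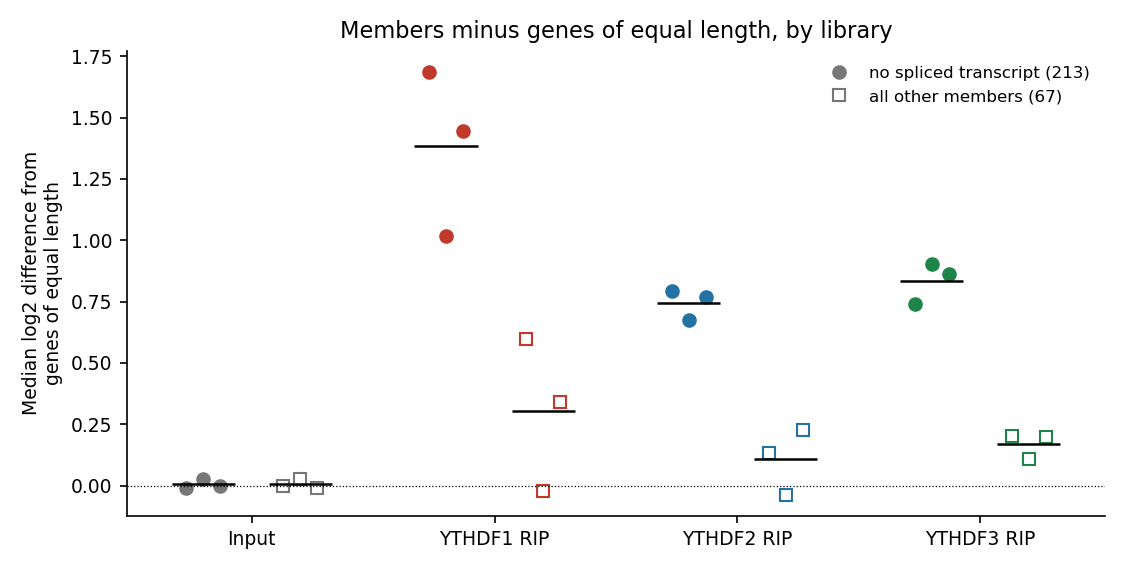
Points give, for each of the 12 libraries, the median difference in log2 ratio to mean Input between members and genes of equal length, for the 213 unspliced members (filled) and for the 67 others (open), with lines at the mean of each group. Unspliced members lie between 1.018 and 1.686 in YTHDF1, and the others between -0.02 and 0.597.

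The excess was larger among the members without a spliced transcript. Of the 213 unspliced members, 111 were enriched in YTHDF1 (52.1%) and 18 depleted (8.45%), while 14.8% and 39.2% of their genes of equal length were. Their median difference from those genes was 1.42 in YTHDF1, 0.74 in YTHDF2 and 0.81 in YTHDF3. Of the 66 members with a spliced transcript, 17 were enriched and 21 depleted in YTHDF1, 10 and 15 in YTHDF2, and 12 and 18 in YTHDF3. In YTHDF1 that is 25.8% and 31.8%, against 27.2% and 25.8% of all genes and 18.5% and 33.0% of genes of equal length. Their median differences were 0.31, 0.08 and 0.16. Per library, unspliced members gave 0.674 to 0.792 in YTHDF2 and 0.739 to 0.903 in YTHDF3, while the other 67 gave -0.036 to 0.228 and 0.11 to 0.201, so these ranges did not overlap. By transcript length the unspliced members differed by 1.07, 0.49 and 0.46 and the others by 0.23, 0.0 and 0.14.

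The difference fell with the number of merged exon intervals. In YTHDF1 it was 1.19 for 1 interval (280 genes), 0.55 for 2 (496 genes), 0.14 for 3 to 5 (2445 genes), -0.21 for 6 to 10 (3778 genes) and 0.03 for over 10 (6272 genes). In YTHDF2 the same classes gave 0.58, 0.10, -0.08, -0.16 and 0.09. In YTHDF3 they gave 0.67, 0.31, 0.05, -0.16 and 0.04. The interquartile ranges of 1 and 2 intervals overlapped, with 0.47 to 1.89 against -0.31 to 1.41 in YTHDF1. The order was from 1 interval down to 6 to 10 in each RIP, and the class over 10 was again higher. By transcript length the classes from 1 interval upward gave 0.89, 0.44, 0.1, -0.13 and 0.0 in YTHDF1, 0.42, 0.07, -0.11, -0.12 and 0.09 in YTHDF2, and 0.41, 0.11, 0.01, -0.1 and 0.03 in YTHDF3.

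**Figure D3:**
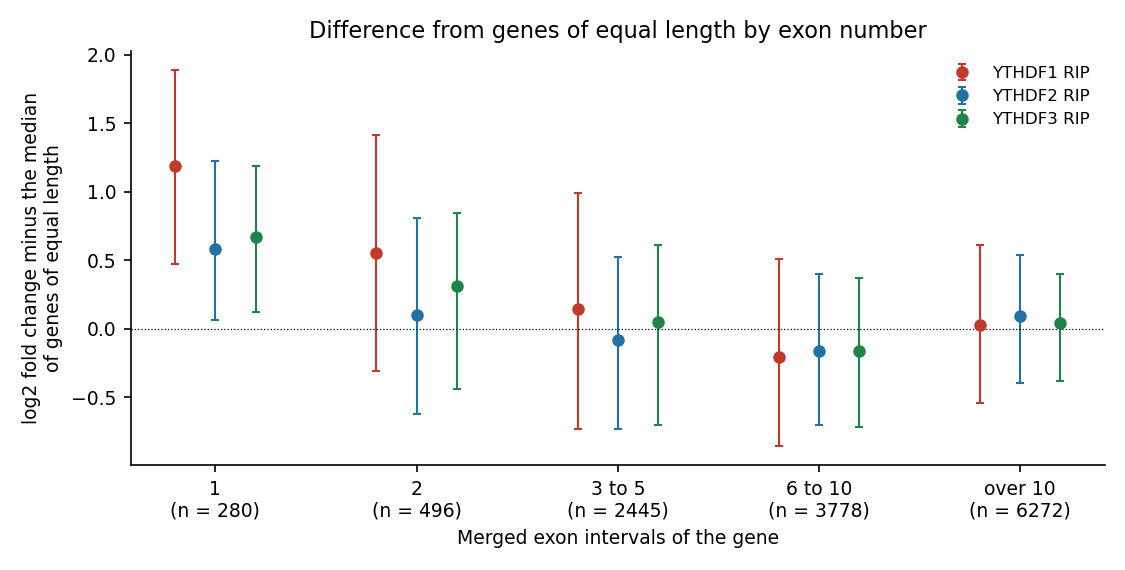
Points are medians, and bars interquartile ranges, of the difference in log2 fold change from protein-coding genes of equal exonic length, by number of merged exon intervals, for each RIP. The single-interval class is highest in each RIP (1.19, 0.58 and 0.67), and the class of 6 to 10 intervals lowest (-0.21, -0.16 and -0.16).

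Members were above other genes in each length class in YTHDF1. Under 1 kb the median log2 fold change was -0.59 for 14 members and -1.48 for 311 other protein-coding genes. From 1 to 2 kb it was -0.03 for 72 members against -1.12, and from 2 to 3 kb 0.86 for 72 members against -0.51. It was 1.19 for 90 members of 3 to 5 kb against -0.06, and 1.37 for 32 members over 5 kb against 0.62. Under 1 kb 2 of 14 members were enriched and 6 depleted, whereas 45 of 63 unspliced members of 3 to 5 kb were enriched (71.4%) and 2 were depleted. Over 5 kb the gap was smaller in the other RIPs, at 0.54 against 0.34 in YTHDF2 and 0.51 against 0.49 in YTHDF3. By transcript length it was 0.79 for 26 members over 5 kb against 0.47 in YTHDF2 and 0.63 against 0.73 in YTHDF3, where the members were lower. Across the 213 unspliced members, which share libraries and depth, the Spearman correlation of exonic length with the log2 fold change was 0.542 in YTHDF1, 0.352 in YTHDF2 and 0.478 in YTHDF3.

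**Figure D4:**
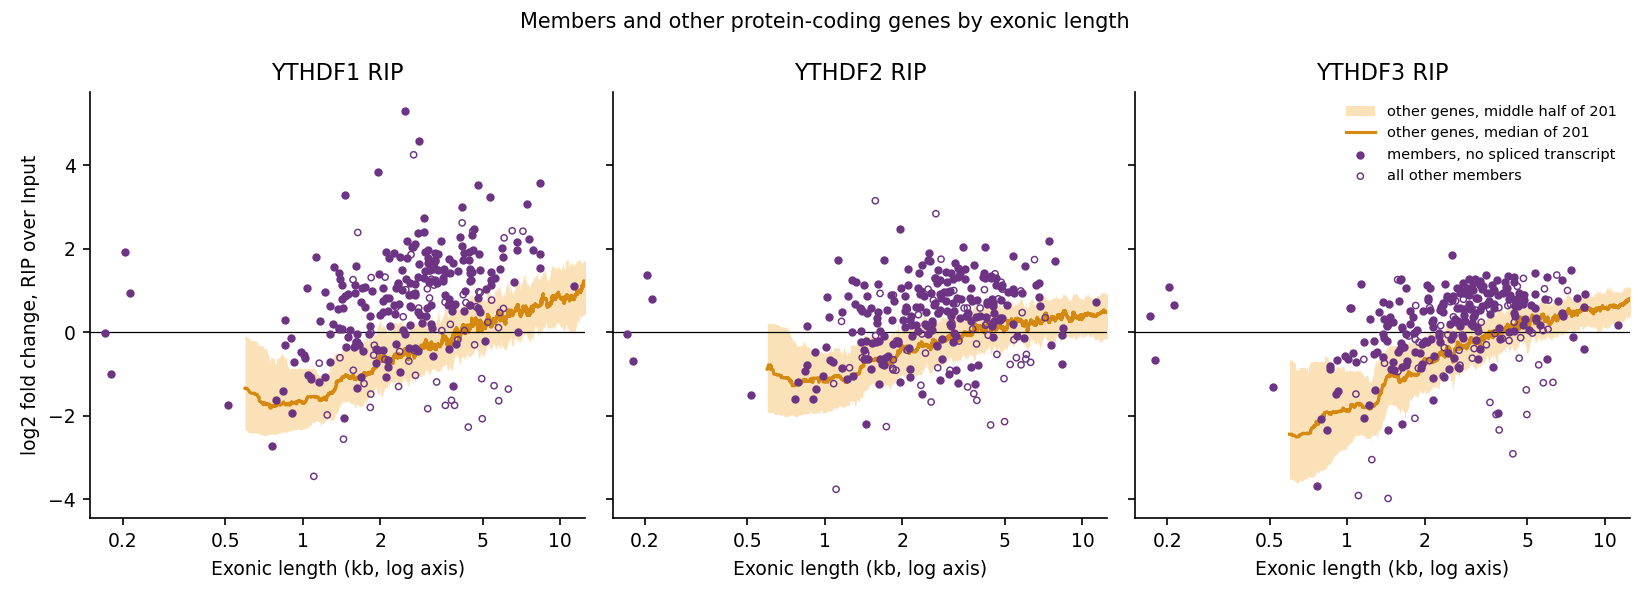
Points are members, filled where they have no spliced transcript, by exonic length in kb on a log axis and log2 fold change of each RIP over Input. The line and band give the running median and interquartile range of the other protein-coding genes of like length. Members lie above the other genes from 1 to 3 kb, where their medians in YTHDF1 are -0.03 and 0.86 against -1.12 and -0.51.

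The named members follow by role, beginning with transcription factors. Sox11 (ENSMUSG00000063632, chr12:27334264-27342574) and Sox4 (ENSMUSG00000076431, chr13:28948919-28953713), HMG box factors of neuronal differentiation, followed Igip among members whose mean normalized count reached 100. Sox11 stood at 103, 138 and 248 CPM in Input, at 711, 4720 and 413 CPM in YTHDF1, at 169, 244 and 54.1 CPM in YTHDF2 and at 151, 194 and 401 CPM in YTHDF3. All YTHDF1 libraries were above Input, with replicate 2 far above the other replicates, and the other RIPs overlapped Input. Its log2 fold change was 3.58 ± 0.90 (SE, edgeR adjusted p = 0.00598) in YTHDF1, -0.07 in YTHDF2 and 0.61 in YTHDF3. Without YTHDF1 RIP replicate 2 it was 1.73 (edgeR adjusted p = 0.0329), and with the replicate block in a fit of both groups 2.75 (edgeR adjusted p = 0.0573), which is not called. Sox4 stood at 49.6, 69.5 and 128 CPM in Input and at 494, 2050 and 304 CPM in YTHDF1. Its log2 fold change in YTHDF1 was 3.53 ± 0.72 (edgeR adjusted p = 0.00176), and 2.22 (edgeR adjusted p = 0.00421) without YTHDF1 RIP replicate 2. Of 6 Sox members 3 were enriched in YTHDF1 and 1 each in YTHDF2 and YTHDF3, and of 7 Sox genes with several intervals 1, 1 and 0 were.

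Pou3f3 (ENSMUSG00000045515, chr1:42695768-42703176), a POU factor of the developing forebrain, was among the few members near the top in every RIP. Its levels were 35.8, 80.7 and 78.6 CPM in Input, 603, 566 and 466 CPM in YTHDF1, 291, 279 and 316 CPM in YTHDF2 and 82.4, 224 and 243 CPM in YTHDF3. No RIP library overlapped Input, although YTHDF3 replicate 1 was only just above it. The gain was 8.38-fold in YTHDF1, 4.54-fold in YTHDF2 and 2.82-fold in YTHDF3, with edgeR adjusted p of 0.000111, 0.00179 and 0.00979. Pou3f1 was enriched in YTHDF1 (log2 fold change 1.67), and Pou3f2 was not called in the 3 RIPs (1.30, -0.09 and 0.17). Of the C/EBP basic leucine zipper genes, Cebpa (1.86) and Cebpb (0.91) were enriched in YTHDF1, while Cebpd was at 0.19 with an SE of 0.83. Cebpa was also called in YTHDF2 (0.77) and in YTHDF3 (0.75), but neither call was made without Input replicate 2 (0.72 and 0.70, edgeR adjusted p = 0.0646 and 0.0603). Cebpb lost its call without Input replicate 1 (0.87) and with library size alone (0.53). Bhlhe22, a basic helix-loop-helix factor, was enriched in YTHDF1 (1.50 ± 0.32).

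Olig1, a transcription factor of the oligodendrocyte lineage, was the member with the third highest Input level per kb and was not called. It stood at 34.9, 231 and 178 CPM in Input and at 1190, 177 and 145 CPM in YTHDF1. Only YTHDF1 replicate 1 was above Input, and the log2 fold change of 1.77 had an SE of 0.93 (edgeR adjusted p = 0.132). The oligodendrocyte-lineage markers summed to 370 to 1460 CPM in YTHDF1 and to 58.8 to 403 CPM in Input, and their part in this value was not tested.

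Surface proteins and receptors were enriched in part. Slitrk1 (ENSMUSG00000075478, chr14:108908800-108914158), a leucine-rich repeat protein of the neuronal membrane, rose in every RIP. It stood at 37.1, 34 and 28.9 CPM in Input, 332, 257 and 368 CPM in YTHDF1, 112, 91.8 and 152 CPM in YTHDF2 and 92.1, 92.0 and 83.4 CPM in YTHDF3. All 9 RIP libraries were above all Input libraries. The gain was 9.54-fold in YTHDF1, 3.55-fold in YTHDF2 and 2.67-fold in YTHDF3 (edgeR adjusted p = 2.91e-06, 0.000301 and 0.000384). Of 5 members of this class 3 were enriched in each RIP, Amigo3 and Lrrc10b beside Slitrk1, with Lrrc10b at 1.92 in YTHDF1 and 1.52 in YTHDF2. Its YTHDF3 call was lost without any 1 of the 3 Input libraries or without YTHDF3 RIP replicate 1 or 2 (1.03 to 1.12). Lrrtm2 and Amigo2, which have spliced transcripts, were not called in the 3 RIPs. Among 61 genes of the same symbols with several intervals, 30 were enriched in YTHDF1, 11 in YTHDF2 and 19 in YTHDF3.

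Of 12 G protein-coupled receptor members 7 were enriched and 1 was depleted in YTHDF1, against 25 and 2 of 74 receptors with several intervals. Gpr27, an orphan receptor, stood at 41.4, 30.8 and 28.4 CPM in Input and rose to 152, 112 and 90.5 CPM in YTHDF1, 110, 113 and 83.8 CPM in YTHDF2 and 72.2, 70.2 and 81.4 CPM in YTHDF3. Every RIP library was above every Input library, while the YTHDF1 and YTHDF2 libraries overlapped, with log2 fold changes of 1.81, 1.61 and 1.15. Adra2c, an alpha-2 adrenergic receptor, was at 9.44, 11.1 and 5.46 CPM in Input and at 82.5, 11.6 and 25.7 CPM in YTHDF1. Its log2 fold change was 2.19 (edgeR adjusted p = 0.00963), which fell to 1.1 (edgeR adjusted p = 0.0526) without YTHDF1 RIP replicate 1. The replicate block in a fit of both groups also ended that call (1.74, edgeR adjusted p = 0.0728). Adra2c was also called in YTHDF2 (2.03 ± 0.60), but not without Input replicate 1 (2.09, edgeR adjusted p = 0.0546). Its relative Adra2a was called in each RIP (0.97, 1.2 and 1.29) and in none without Input replicate 1 (0.77, 1.0 and 1.08). Fzd1, a receptor of Wnt ligands, was enriched in each RIP (1.74, 1.31 and 1.35), and Htr1a, a serotonin receptor, in YTHDF1 (1.23; 0.85 and not called with library size alone).

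Ubiquitin ligase adaptors were the family with the highest median in YTHDF1, 2.09 over 8 members, of which 5 were enriched. The 237 related genes with several intervals had a median of 0.26 and 79 enriched. Klhl9 (ENSMUSG00000070923, chr4:88718292-88722465), an adaptor of a cullin 3 ligase, stood at 60.3, 63.8 and 68.8 CPM in Input, 454 to 574 CPM in YTHDF1, 274, 264 and 252 CPM in YTHDF2 and 124, 139 and 139 CPM in YTHDF3. The 4 groups did not overlap. The gain was 7.93-fold, 4.09-fold and 2.09-fold, and its log2 fold change in YTHDF1 of 2.99 had an SE of 0.16 (edgeR adjusted p = 1.11e-06). Fbxl14 (ENSMUSG00000030019, chr6:119479668-119482630), an F-box protein, stood at 12.9, 15.0 and 13.2 CPM in Input and at 86.9, 114 and 72.8 CPM in YTHDF1. It was enriched 6.67-fold in YTHDF1. Its 1.70-fold gain in YTHDF2 and 1.60-fold gain in YTHDF3 were called, but not without Input replicate 1 (log2 fold changes of 0.72 and 0.63). Kbtbd7, an adaptor of the same kind as Klhl9, was enriched in YTHDF1 (2.34) and YTHDF3 (0.70). Kctd12, an auxiliary subunit of GABA-B receptors that has a spliced transcript and shares exonic bases with another gene, was at 177, 171 and 178 CPM in Input and at 376, 1390 and 745 CPM in YTHDF1. Its log2 fold change of 2.26 was 1.60 without YTHDF1 RIP replicate 2 and was called both times.

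**Figure D5:**
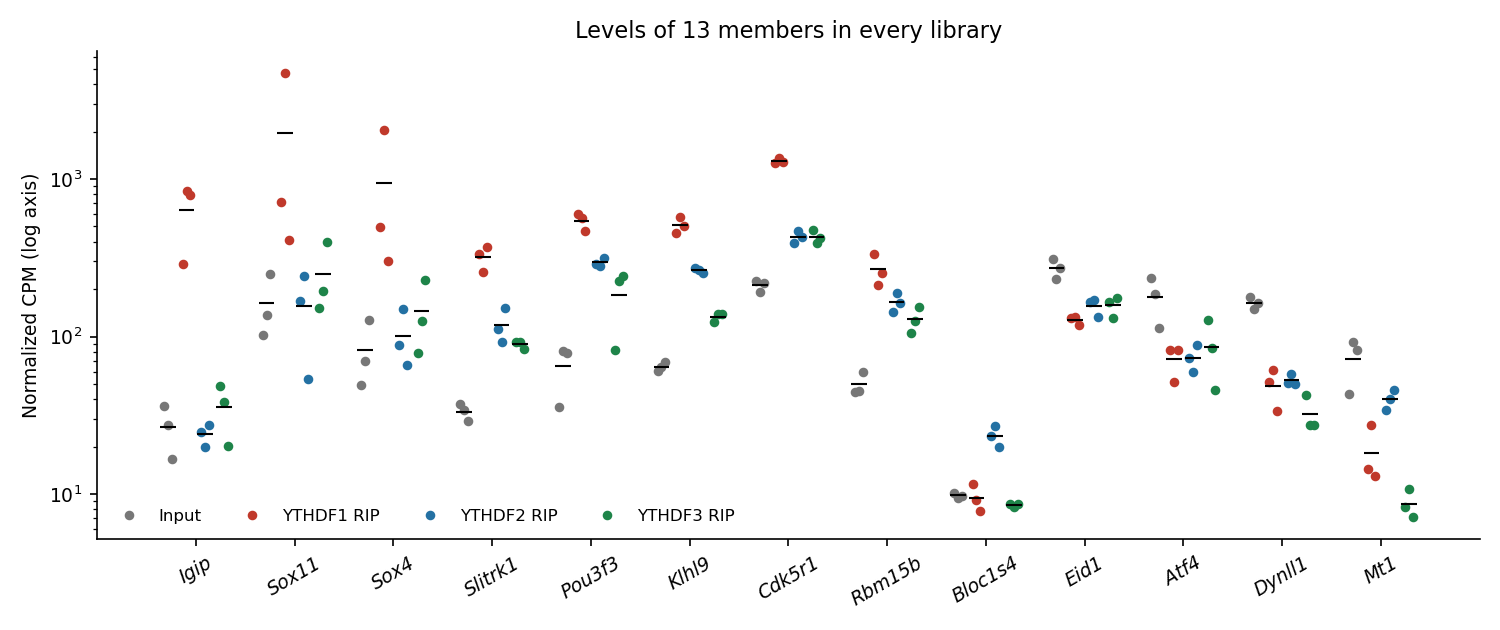
Points give the normalized CPM of each library, on a log axis, for selected members in Input and the RIPs of YTHDF1, YTHDF2 and YTHDF3. Slitrk1 and Klhl9 are above Input in all 9 RIP libraries, whereas the Sox11 libraries of YTHDF1 spread from 413 to 4720 CPM.

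Igip, which encodes a small secreted peptide (ENSMUSG00000110185, chr18:36298679-36301517), showed the largest fold change in YTHDF1 among members whose mean normalized count reached 100, and no call in the other RIPs. It stood at 36.0, 27.5 and 16.6 CPM in Input, 291, 836 and 793 CPM in YTHDF1, 24.9, 20 and 27.3 CPM in YTHDF2 and 48.7, 38.2 and 20.1 CPM in YTHDF3. The YTHDF1 libraries were far above all others, and YTHDF2 and YTHDF3 overlapped Input. The gain was 23.9-fold over Input (log2 fold change 4.58 ± 0.49, edgeR adjusted p = 2.74e-05). Against YTHDF2 the level in YTHDF1 was 26.6-fold higher (edgeR adjusted p = 6.99e-05) and against YTHDF3 17.9-fold higher (edgeR adjusted p = 0.000188). Cdk5r1, which encodes the p35 activator of the kinase Cdk5, rose from 212 ± 18.1 CPM in Input to 1300 ± 49.1 CPM in YTHDF1, 430 ± 35.1 CPM in YTHDF2 and 429 ± 43.8 CPM in YTHDF3 (SD, n = 3 each). Its relative Cdk5r2, which encodes the activator p39 and lies inside an intron of a gene on the same strand, was depleted in YTHDF2, from 147, 116 and 88.4 CPM in Input to 56.0, 42.3 and 61.2 CPM (log2 fold change -1.14 ± 0.23). It was not called in YTHDF1 (-0.44) or YTHDF3 (-0.06).

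Hspa1a and Hspa1b, the inducible chaperones of the Hsp70 family, lie near each other on chromosome 17 and are near-identical, so reads aligned to both were counted for both. Hspa1b rose from 23.5 ± 2.42 CPM in Input to 122 ± 33.4 CPM in YTHDF1 (SD, n = 3), and Hspa1a from 13.8 ± 1.88 to 73.8 ± 18.5 CPM. Their log2 fold changes were 2.38 and 2.41 in YTHDF1, 1.26 and 1.21 in YTHDF2 and 0.94 and 0.90 in YTHDF3. The YTHDF3 calls of both were lost without Input replicate 2 (0.91 and 0.86). Of 50 chaperone genes with several intervals 12 were enriched and 15 depleted in YTHDF1. Of 5 stimulus-induced or signalling members 2 were enriched in YTHDF1, as were 22 of 49 related genes with several intervals. They were Rhob, a small GTPase (1.16), and Ier5, an immediate early response gene (1.89). Ier5 was also called in YTHDF2 (1.53) and in YTHDF3 (1.23), the latter not without Input replicate 1 (1.12). Of 5 members of tissue-restricted families 4 were enriched in YTHDF1, against 5 of 22 related genes with several intervals, of which 2 were depleted. Among the 4 were Tspyl1, Tspyl3 and Tspyl5 of the nucleosome assembly protein family, at 1.50, 1.79 and 1.46, while Tspyl4, which has a spliced transcript, was not called (0.64). None of 6 glycosyl and sulfotransferase members was called in the 3 RIPs, with a median of 0.81 in YTHDF1. Of 64 related genes with several intervals 21 were enriched and 8 depleted in YTHDF1, with a lower median of 0.38. Chst14, B3galt4, B3gnt4 and B3gnt9 had mean normalized counts of at most 20.9, near the limit for testing of 10. The other members, B4gat1 and B3galt6, had 541 and 125. Whether low counts kept members of this family from being called was not tested. Purb, a single-stranded nucleic acid-binding protein, was enriched in YTHDF1 (1.55; 0.84 and not called with the length trend removed) and at -0.76 in YTHDF2 and -0.41 in YTHDF3, neither called.

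The depleted end held short genes, genes with spliced transcripts and copies of spliced genes. 0610012G03Rik (chr16:31947050-31948494), an unspliced gene, stood at 17.0, 17.8 and 19.4 CPM in Input and between 3.14 and 4.99 CPM in all RIP libraries. It was depleted 4.14-fold in YTHDF1, 4.60-fold in YTHDF2 and 5.01-fold in YTHDF3, more than genes of equal length (differences of -1.0, -1.52 and -1.28). Dynll1, a light chain of dynein with 5 spliced transcripts, fell from 164 ± 14.6 CPM in Input to 48.8 ± 13.7, 53.1 ± 4.45 and 32.4 ± 8.55 CPM in YTHDF1, YTHDF2 and YTHDF3 (SD, n = 3). Timm10b, a mitochondrial import protein with 11 spliced transcripts, was depleted 3.36-fold, 2.48-fold and 3.21-fold. Atf4, a transcription factor of the stress response with spliced transcripts, was depleted in all RIPs (-1.30, -1.27 and -1.05), although its YTHDF3 libraries overlapped Input. Without Input replicate 1 its calls in YTHDF2 (-1.03) and YTHDF3 (-0.80) were lost. Mt1, a metallothionein with spliced transcripts, was depleted 8.29-fold in YTHDF3 and 3.96-fold in YTHDF1 and was at -0.85 in YTHDF2 (edgeR adjusted p = 0.066).

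Several members are near-identical copies of a spliced gene. Hmga1b, a copy of Hmga1, fell from 21.6, 19.8 and 17.1 CPM in Input to 7.38, 6.06 and 9.54 CPM in YTHDF1, 6.12, 6.87 and 11.6 CPM in YTHDF2 and 5.95, 4.26 and 2.58 CPM in YTHDF3. Every RIP library was below every Input library, while the YTHDF1 and YTHDF2 libraries overlapped, and the log2 fold changes were -1.34, -1.24 and -2.20. The call in YTHDF2 was lost without YTHDF2 RIP replicate 1 (-1.07). Sap18b, a copy of Sap18, was depleted in each RIP (-1.61, -1.2 and -2.07), as were genes of its length (differences of 0.13, -0.03 and -0.15). Because reads of a spliced parent gene can be counted for its copy, these values are uncertain for the copy itself. Of the 20 members near-identical to another gene 8 were enriched and 8 depleted in YTHDF1, 5 and 9 in YTHDF2, and 5 and 10 in YTHDF3. Eid1, an inhibitor of the coactivator EP300 and the member with the highest Input level (160 CPM per kb), was depleted in each RIP (-1.08, -0.79 and -0.78), close to genes of its length (differences of -0.04, -0.10 and 0.25).

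Of the 4 histone members, H1f10 and H2aj were called depleted in each RIP, while H1f0, a replacement linker histone, was called enriched in YTHDF3 (0.82 ± 0.23) and H2ax was not called. The call of H1f0 was lost without Input replicate 1 (0.62). H2aj has a spliced transcript, and its call in YTHDF2 was lost with the replicate block (-0.84, edgeR adjusted p = 0.0625).

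Mkrn3 (chr7:62417593-62420139) and Ndn (chr7:62346569-62350262), intronless genes that are imprinted and lie close on chromosome 7, went opposite ways. Mkrn3, a makorin ring finger gene, stood at 10.8, 8.49 and 6.43 CPM in Input and rose to 34.2, 21.1 and 32.5 CPM in YTHDF1, 34, 25.1 and 25.4 CPM in YTHDF2 and 17.2, 13.7 and 13.6 CPM in YTHDF3. It was enriched in each RIP (1.77, 1.71 and 0.78), in YTHDF3 not without Input replicate 2 (0.77, edgeR adjusted p = 0.0734). Ndn, which encodes necdin, stood at 205, 164 and 173 CPM in Input and fell to 110, 77.9 and 115 CPM in YTHDF2 and 132, 82.1 and 92.7 CPM in YTHDF3. It was depleted there (-0.84 and -0.82; -0.66 and not called in YTHDF3 without YTHDF3 RIP replicate 2) and was at -0.40 in YTHDF1, which was not called.

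Same-numbered libraries of YTHDF1 or YTHDF2 and Input did not deviate together as those of YTHDF3 and Input did, so the block is uncertain there. With the replicate block in fits of both groups, some calls named above were not made. In YTHDF1 these were Adra2a (0.84), Cebpb (0.75), Htr1a (1.08), Purb (1.34) and Rhob (0.99), beside Sox11 and Adra2c. In YTHDF2 they were Adra2a (1.2), Cebpa (0.77) and Fbxl14 (0.75). In YTHDF3 the block added calls for Sox11 (0.64), Sox4 (0.85), Kctd12 (0.83), Adra2c (1.44), Bhlhe22 (0.68), Tspyl1 (0.43), Tspyl4 (0.66) and Igip (0.46), and for Purb a depletion (-0.34). Leaving out libraries other than those named above also ended calls. In YTHDF1 this held for Adra2a without Input replicate 3 or YTHDF1 RIP replicate 1 (0.81 and 0.57) and for Cebpb without Input replicate 3 or YTHDF1 RIP replicate 1 or 3 (0.74 to 0.78). In YTHDF2, leaving out YTHDF2 RIP replicate 1 ended the calls of Adra2a (0.86), Adra2c (1.74), Cebpa (0.74), Fbxl14 (0.59), Atf4 (-1.27) and H2aj (-0.96). Leaving out Input replicate 3 ended those of Adra2a (1.1), Adra2c (1.77) and Fbxl14 (0.71), and Input replicate 1 that of Cebpa (0.76). Without YTHDF2 RIP replicate 2 the calls of Atf4 (-1.14), H2aj (-0.74) and Hmga1b (-1.13) were lost, without YTHDF2 RIP replicate 3 that of H2aj (-0.88), without Input replicate 2 those of Atf4 (-1.24) and H2aj (-0.82), and without Input replicate 1 that of H2aj (-0.8). In YTHDF3, YTHDF3 RIP replicate 2 decided the calls of Adra2a (1.14 without it), Fbxl14 (0.67), H1f0 (0.71), Ier5 (1.28) and Atf4 (-1.02), and replicate 3 those of Fbxl14 (0.61), Ier5 (0.95) and Atf4 (-0.74). Those of Mkrn3 and Hspa1a were lost without Input replicate 3 (0.66 and 0.88) or YTHDF3 RIP replicate 1 (0.66 and 0.82), and those of Ier5 and Atf4 without Input replicate 2 (1.14 and -1.01). With library size alone the calls of Adra2a in YTHDF1 (0.62), Eid1 in YTHDF3 (-0.45) and Atf4 in YTHDF3 (-0.75) were lost.

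The block over all 12 libraries ended the call of Adra2a in YTHDF1 (0.94) and added those of Pou3f2 in YTHDF1 (1.51) and Mt1 in YTHDF2 (-0.79).

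The RIPs were also compared with each other, at a fold change of at least 2. Between YTHDF1 and YTHDF2, 44 members were higher in YTHDF1 and 5 in YTHDF2, together 17.5% of members, against 17.5% of all tested genes and 12.4% of genes of equal length. Between YTHDF1 and YTHDF3, 44 were higher in YTHDF1 and 5 in YTHDF3, against 14.5% of all genes and 9.60% of genes of equal length. Between YTHDF2 and YTHDF3, 9 members differed (3.21%), against 5.1% of all genes. The median difference from genes of equal length was 0.48 for YTHDF1 over YTHDF2, 0.37 for YTHDF1 over YTHDF3 and -0.04 for YTHDF2 over YTHDF3, and by transcript length 0.43, 0.41 and 0.05. In fits of both groups with the replicate block, 8 members differed between YTHDF1 and YTHDF3. For YTHDF2 and YTHDF3 that number was 4, and 5 with the block over all libraries. In the fit without the block, it was 4 after leaving out YTHDF2 RIP replicate 1, YTHDF2 RIP replicate 2 or YTHDF3 RIP replicate 1. It was 2 without YTHDF3 RIP replicate 2 and 5 without YTHDF3 RIP replicate 3. No share of all genes is given beside these alternative counts.

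Bloc1s4 and Tmem185b went against the general order. Bloc1s4, a subunit of the BLOC-1 complex of endosomal sorting, stood at 10.2, 9.44 and 9.75 CPM in Input, 11.6, 9.13 and 7.76 CPM in YTHDF1, 23.3, 27.0 and 19.8 CPM in YTHDF2 and 8.63, 8.25 and 8.60 CPM in YTHDF3. All YTHDF2 libraries and YTHDF1 replicate 1 were above Input, and the level in YTHDF2 was 2.47-fold that in YTHDF1 (edgeR adjusted p = 0.000497) and 2.75-fold that in YTHDF3 (edgeR adjusted p = 0.00279). Tmem185b, which encodes a transmembrane protein, was at 3.35, 3.51 and 3.43 CPM in Input, 6.34, 4.21 and 4.89 CPM in YTHDF1 and 10.8, 13.6 and 10.3 CPM in YTHDF2. It was 2.25-fold higher in YTHDF2 than in YTHDF1 (edgeR adjusted p = 0.00187). H1f0 was 2.36-fold higher in YTHDF3 than in YTHDF1, and Mt1 4.60-fold higher in YTHDF2 than in YTHDF3.

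Among 16 genes of the exon junction complex and the m6A writer complex, Rbm15b was the only member. Rbm15b, a paralog of Rbm15 that guides the writer complex to its targets, has a spliced transcript and shares exonic bases with another gene. It stood at 44.3, 45.0 and 59.6 CPM in Input, 336, 211 and 253 CPM in YTHDF1, 143, 188 and 164 CPM in YTHDF2 and 106, 126 and 154 CPM in YTHDF3. All RIP libraries were above Input, with log2 fold changes of 2.43, 1.74 and 1.37. Rbm15, whose exons merge into 2 intervals, was at 4.87, 1.0 and 0.78. Of the 16, 7 were enriched and 2 depleted in YTHDF1, 6 and 1 in YTHDF2, and 6 and 5 in YTHDF3. Among the spliced writer genes Virma was enriched in each RIP (2.0, 1.31 and 1.29), and among the junction complex genes Casc3 was enriched (1.65, 0.62 and 0.71) and Magoh depleted (-2.24, -2.05 and -2.34).

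Unspliced members were little different from genes of equal length in the density of GGACT. Their transcripts held a median of 1.16 GGACT per kb against 1.08 for genes of equal length, with 110 of 213 above the median of their own comparison genes. At least 1 GGACT was found in 91.1% of them and in 85.6% of the genes of equal length, and the median GC content was 54.5% against 52.4%. The Spearman correlation of GGACT per kb with the log2 fold change across the 213 genes was -0.119 in YTHDF1, -0.0261 in YTHDF2 and -0.0317 in YTHDF3. That of the number of GGACT per transcript was 0.26, 0.208 and 0.263, and this number rose with length. The 19 unspliced members with no GGACT had a median length of 1691 bases, and the 37 with 6 or more had 4433. Their median differences from genes of equal length were 1.73 and 1.4 in YTHDF1, 0.61 and 0.64 in YTHDF2, and 0.97 and 0.51 in YTHDF3. A link of the number with the fold change apart from length was not tested. The median number of GGACT was 3 in unspliced members and 2 in genes of equal exonic length, whose transcripts are shorter. The coding end was read for 206 of the 213, and 39 held GGACT (18.9%), as did 1894 of 13071 other protein-coding genes (14.5%). The 39 had a median log2 fold change of 0.66 in YTHDF1, 0.29 in YTHDF2 and 0.21 in YTHDF3, and the 167 without it had 1.03, 0.51 and 0.40. Among the coding ends shown above, those of Slitrk1, Klhl9 and Pou3f3, which rose in every RIP, held none. A match marks letters in the sequence and not a methylated site.

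Reads of an intronless mRNA and of genomic DNA cannot be told apart by splicing, so genes that neurons do not use were measured beside the members. Olfactory receptor genes (1135 genes, 768 with a count) summed to 10.2 to 14.4 CPM in Input, to 134, 77.8 and 45.2 CPM in YTHDF1, to 18.1, 13.4 and 58.7 CPM in YTHDF2 and to 7.41 to 11.8 CPM in YTHDF3. They were higher in YTHDF1 than in Input, and in YTHDF3 the level overlapped or lay below Input. Per kb, the level of 126 of the 129 members enriched in YTHDF1 was at least 10-fold that of the olfactory receptor genes in every YTHDF1 library, and that of 97 at least 100-fold. All 65 members enriched in YTHDF2 and all 60 enriched in YTHDF3 passed 10-fold in every library of that RIP. Tested members had to reach a mean normalized count of 10, and these were picked as high in that RIP. Only 6 of the 1135 olfactory receptor genes reached that limit. The ratios were therefore high in part by selection and cannot decide on background. The predicted genes Gm10800, Gm10801 and Gm21738 summed to 1.46 to 8.30 CPM in Input, 73.6 to 940 CPM in YTHDF1, 58.2 to 989 CPM in YTHDF2 and 1.85 to 7.11 CPM in YTHDF3. Adam4, a testis gene chosen here after its values were seen, had the highest log2 fold change of the members in YTHDF1 (5.29 ± 0.76), with 4, 1 and 0 counts in Input and 27, 123 and 136 in YTHDF1. Duxf3 and AW822073, near-identical to each other and seen in the same way, followed with 72, 4 and 7 and with 79, 8 and 9 counts in YTHDF1, so that their calls rested mostly on replicate 1. Whether background of this kind had a part in single values or in the difference of members from genes of equal length was not tested.

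The excess was also computed for members that share no bases with other genes. The counts give a read to every gene it overlaps, and 29 members shared exonic bases with a gene on the same strand, 72 with a gene on the other strand, and 26 lay inside an intron of a gene on the same strand. The 251 members that shared no base on their strand differed from genes of equal length by 1.22 in YTHDF1, 0.60 in YTHDF2 and 0.71 in YTHDF3. The 26 inside an intron differed by 1.34, 0.65 and 1.13. The 194 unspliced members with no near-identical gene differed by 1.44, 0.74 and 0.86, and 104 of them were enriched in YTHDF1 with 10 depleted.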

How the data were processed

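RIP-seq libraries were analysed for 3 replicates of Input and of each of the YTHDF1, YTHDF2 and YTHDF3 RIPs. The deposited values are whole-number counts per gene, which the authors made from UMI-tagged reads with UMI-tools 1.1.1, cutadapt 3.4, STAR 2.7.7a on mm10 and featureCounts 2.0.1 (stranded, exons summed per gene, with reads given to every overlapping gene and every alignment; Ensembl 97). Their own DESeq2 tables supplied gene symbols and biotypes. The fold changes, p-values and normalized means in them were not used. Count columns of other series numbered 0.

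The 17126 genes whose mean normalized count reached 10 were fitted together over all 12 libraries with edgeR 4.0.16 (glmQLFit, glmQLFTest, TMM factors) in R 4.3.3, and p-values were adjusted by Benjamini-Hochberg over all of them. This follows the study in its thresholds, a fold change of 1.25 against Input and 2 between RIPs with an adjusted p of 0.05, while DESeq2 1.42.0 served as an alternative. Depth per library was 6020072 to 38909592 counts, so that replicate spread and not counting error limits most members. The replicate pairs of a group differed beyond sampling noise, and none was identical. Normalized CPM are counts scaled to the TMM-adjusted library size, and no pseudocount enters them. Each member was compared with the 201 other protein-coding genes nearest in exonic length. Per-library log2 ratios used a prior count of 2. Calls were tested on simulated data before use.

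Members were matched to GENCODE M21 on GRCm38, while the authors counted on Ensembl 97, so transcript structures can differ slightly. A symbol prefix counted when the symbol of the authors' table or an older symbol of the gene carried it, which removed 61 histone genes named Hist earlier. The authors' symbols alone would have kept 343 genes. Near-identical genes shared at least 95% identity over at least 50% of a transcript by blastn 2.17.0.

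The members and lists were chosen with earlier results of these data known. Named genes are members past the threshold whose mean normalized count reached 100, with every RIP library on the same side of every Input library (the 8 highest and 6 lowest per RIP, and 2 each way per pair of RIPs), the 8 highest in Input per kb, and up to 4 per family by mean count. Adam4, Duxf3, AW822073, Amigo3 and Gpr52 were named outside it. Some named genes are not reported here.

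The methods state that each replicate's lysate was split between its Input and RIPs, so the numbers were taken to pair the libraries. Deviations from group means of same-numbered libraries correlated at 0.829, 0.528 and 0.804 for YTHDF3 and Input, but at 0.091, -0.267 and -0.322 for YTHDF1 and Input and at 0.178, -0.323 and -0.313 for YTHDF2 and Input. Differently numbered libraries ran from -0.276 to 0.467 for YTHDF1 and Input and from -0.33 to 0.56 for YTHDF2 and Input. Both were highest for RIP replicate 2 with Input replicate 3. Whether the numbers mark true pairs for YTHDF1 and YTHDF2 was not tested, so their blocked fits are uncertain. The block therefore was run as an alternative. Further alternatives covered the tool, the scaling, the filter, the length trend, the genes compared, single libraries left out, and 6 choices added after the data were seen.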

Additional observations from a re-analysis of the deposited data

Results flagged for a closer look

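Olfactory receptor genes, of which none is a member and 6 of 1135 passed the limit for testing, were counted above Input in the YTHDF1 RIP. Their summed level in the lowest YTHDF1 library was 45.2 CPM, and in the highest Input library 14.4 CPM. In YTHDF2 replicate 3 it was 58.7 CPM, and in the other YTHDF2 libraries 18.1 and 13.4 CPM. The members enriched in YTHDF1 were at least 4.97-fold above these genes per kb in every YTHDF1 library, with a median of 265-fold. These members were selected by the limit for testing and by a high level in YTHDF1, so the ratios do not measure background.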

How the results depend on the processing

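No member called enriched or depleted was called the opposite way under any alternative run. Over 225 values of 75 named genes, 4850 alternatives kept side and direction, 200 lost a call, 102 gained one and 8 reversed. With the length trend removed, 22, 22 and 21 members were depleted in YTHDF1, YTHDF2 and YTHDF3, and with the replicate block as well 22, 21 and 21, with 93 enriched in YTHDF3. By its construction this alternative raises short genes. The reversed values were Bloc1s4 in YTHDF1 (0.70; 0.69 with the block) and in YTHDF3 (0.80; 0.81), Nutf2-ps1 in YTHDF1 (0.89; 0.88) and H2ax in YTHDF3 (0.82; 0.84). It also ended the depletion calls of Eid1 in YTHDF3 (-0.04) and YTHDF2 (-0.42), Sap18b in YTHDF2 (-0.32), Hmga1b in YTHDF1 (-0.73) and YTHDF2 (-0.85), H1f10 in YTHDF1 (-0.32) and YTHDF2 (-0.53), H2aj in YTHDF2 (-0.53) and Atf4 in all RIPs (-1.0, -1.1 and -0.61), and the enrichment calls of Purb (0.84; 0.87 with the block) and Adra2a (0.76; 0.72) in YTHDF1. The split of enriched and depleted members was 143 to 22, 72 to 22 and 90 to 21. Of all genes, 22.3% and 24.3% were so called in YTHDF1, 12.6% and 16.7% in YTHDF2, and 15.9% and 16.3% in YTHDF3. With the block 140, 71 and 93 members were enriched, against 21.5%, 12.5% and 15.7% of all genes. The depleted shares of all genes were then 24.0%, 16.0% and 15.8%.

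Depleted members in YTHDF3 numbered 25 with library size alone, against 17.7% of all genes. With no filter on low counts 30 were depleted and 70 enriched. Of all genes in that fit, many with few counts, 8.53% were depleted and 7.3% enriched. Members differing between YTHDF1 and YTHDF3 numbered 31 when only these libraries were fitted. A fit of 2 groups with the replicate block gave the following: 68 members were enriched in YTHDF1, 129 in YTHDF3, 8 differed between YTHDF1 and YTHDF3, and 4 members did so for YTHDF2 and YTHDF3, where the block over all libraries gave 5. With the later-named histone genes kept, which gave 343 genes, 96 of them were depleted in YTHDF3, against 23.0% of all genes. The difference from genes of equal length there was 0.50. Unspliced members alone gave 0.74 in YTHDF2 and 0.81 in YTHDF3. In other cases the cause was not tested.

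Leaving out single libraries gave 101 to 138 enriched and 32 to 42 depleted members in YTHDF1, 44 to 77 and 27 to 41 in YTHDF2, and 33 to 77 and 30 to 50 in YTHDF3. Members differing numbered 36 to 54 between YTHDF1 and YTHDF2, 38 to 51 between YTHDF1 and YTHDF3 and 2 to 11 between YTHDF2 and YTHDF3. For these, shares of all genes are not given. The difference from genes of equal length ranged from 1.09 to 1.42, 0.52 to 0.67 and 0.65 to 0.76. It was 1.23, 0.56 and 0.64 for genes nearest in length and mean count, 1.17, 0.60 and 0.69 with 51 genes compared and 1.21, 0.59 and 0.66 with more genes. With genes nearest in length of the longest coding transcript, chosen after the data were seen, it was 0.89, 0.42 and 0.41. Depth limits members near a count of 10, whose calls have the widest errors.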

Other observations

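Frizzled receptors, which bind Wnt ligands, were grouped after their values were seen. Of the members Fzd1, Fzd2, Fzd7, Fzd8 and Fzd9, 3 were enriched in YTHDF1, 2 in YTHDF2 and 3 in YTHDF3, with median log2 fold changes of 1.45, 1.07 and 1.12. Of Fzd3, Fzd4, Fzd5 and Fzd6, which have several exon intervals, 3, 1 and 0 were enriched, with medians of 1.47, 0.96 and 0.48. The retroelement-derived members Pnma1, Pnmal2 and Rtl6, also grouped after their values were seen, had medians of 1.72, 1.29 and 1.09, with 2 of 3 enriched in each RIP. Of 13 related genes that are not members, 6, 2 and 3 were enriched and 3 were depleted in each RIP, with medians of 1.03, 0.13 and 0.54.

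The 61 histone genes left out by their older symbols are intronless too, and their mRNAs mostly end without a poly(A) tail. They summed to 695 to 2850 CPM in Input, 269 to 2500 in YTHDF1, 1380 to 2870 in YTHDF2 and 165 to 310 in YTHDF3. All YTHDF3 libraries were below all Input libraries, and the YTHDF1 and YTHDF2 libraries overlapped Input.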
